A study of Homo sapiens with 2 samples.

Results

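The 9 genes described here supply, or remove, the deoxynucleotides from which DNA is built, and were taken by name: RRM1, RRM2, RRM2B, TYMS, TK1, DUT, DTYMK, DCK and SAMHD1. They are 9 of 34237 genes with a matched transcript and 9 of the 11582 with a mean of at least 1 TPM, so all 9 passed that filter. TPM is an abundance corrected for transcript length and scaled to the same total in each library. The group was chosen by its role and by the difference in TPM between the library without and the library with doxycycline, so every difference below is a description and carries no test.

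Polyadenylated RNA came from the liver cancer line HepG2, in a version whose SAMD4B cassette is switched on by doxycycline (Dox). SAMD4B belongs to the Smaug family of RNA-binding proteins, named after the fly factor that represses and destabilises its target mRNAs. Of 2 libraries, 1 was grown without Dox and 1 with 1 µg/ml Dox, and 48 h of culture is stated for both. Whether the cassette line is 1 clone is not given in the sources used here, and Dox-treated HepG2 lacking the cassette is not analysed here, so Dox and SAMD4B cannot be told apart. Values given in pairs are for the library without Dox and then the library with Dox. With 1 library per group there is no spread between replicates, no p-value is given, and each difference holds for these 2 libraries. Fewer cells in S phase and less RNA per cell cannot be told apart in such bulk RNA.

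SAMD4B was at 47.5 TPM in the library without Dox and at 261 TPM in the other, the direction the labels give. The hepatoma markers were abundant in both libraries, with AFP at 13406 and 12140 TPM and ALB at 445 and 407 TPM. Of 14 markers of other cell types, PTPRC, CD3E, VWF and KRT20 were listed at 0 in both libraries, while EPCAM (94.2 and 76.9 TPM) and ACTA2 (61.3 and 36.7 TPM) were not. The list summed to 177 TPM without Dox and 138 with Dox, and the part of such cells in the results was not tested. The step between low TPM values gave an estimated depth of 18259526 fragments without Dox and 23590806 with Dox, and the intervals below rest on it and cover counting error only.

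Ribonucleotide reductase makes deoxynucleotides from ribonucleotides. Its large subunit is RRM1, and its small subunit is RRM2 in S phase or RRM2B outside S phase and after DNA damage. Thymidylate comes from TYMS, which methylates dUMP, or from TK1, which salvages thymidine. DUT removes dUTP and supplies dUMP, and DTYMK carries out the next phosphorylation of thymidylate. DCK salvages deoxycytidine and purine deoxynucleosides, and SAMHD1 breaks deoxynucleotide triphosphates down. RRM2, RRM1, TYMS, TK1, DUT and DTYMK are classed among genes that rise with entry into S phase.

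The sequence that sets apart the most abundant short RRM2 transcript is shown first, because the RRM2 result depends on which transcripts are summed. RRM2-207, annotated as retained intron, has 573 nt. It starts with 45 bases of the intron before exon 6 of RRM2-201, and its other 528 bases (92.1%) are contained in RRM2-201, the main coding transcript. In the stretch at chr2:10126830-10126904 (GRCh38, plus strand, from GENCODE release 29), capitals mark the intron bases that only RRM2-207 has of these 2 transcripts.
RRM2-207: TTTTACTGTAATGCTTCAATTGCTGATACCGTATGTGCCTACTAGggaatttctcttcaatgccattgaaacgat

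Promoter sequences are shown because 7 of the 9 genes were lower with Dox. RefSeq promoters (GRCh38.p14) were found for 8 members and not for RRM2B, and the 250 bases before each listed start were searched on both strands. Several listed starts gave 13 windows for the 8 genes, 4 of them for DUT. CCAAT, the box bound by NF-Y, was present for 5 of the 8 genes (RRM1, RRM2, TK1, DTYMK and SAMHD1), and for 37.0% of 27305 genes with such promoters. By window, 6 of the 13 hold it, against 32.0% of all 35116 windows of the same length. The window before 1 of the RRM2 starts holds 3 boxes, and 2.93% of all windows hold 3 or more. In the windows of 30 bases below, written on the gene's strand, capitals mark CCAAT or its complement.
RRM2 chr2:10122604-10122633: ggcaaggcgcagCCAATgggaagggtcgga
RRM2 chr2:10122634-10122663: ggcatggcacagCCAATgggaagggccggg
RRM2 chr2:10122661-10122690: ggggcaccaaagCCAATgggaagggccggg
TK1 chr17:78187112-78187141: ggccgggcgctgATTGGccccatggcggcg
TK1 chr17:78187081-78187110: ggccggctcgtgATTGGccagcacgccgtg
DTYMK chr2:241686890-241686919: ccccggccccggCCAATcccttcgaatttg
DTYMK chr2:241686822-241686851: tgttgacgccggCCAATgggagctccggaa
SAMHD1 chr20:36951735-36951764: caggaggCCAATaggctgCCAATactcctt

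E2F factors drive many S-phase genes, and 4 forms of their site were searched (TTTCCCGC, TTTGGCGC, TTTCGCGC and TTTGCCGC). A match was found for TYMS and DUT of the 8 genes, against 3.40% of all genes, and in 2 of the 13 windows, against 2.79% of all windows. The DUT match lies before the start that is farthest downstream of 4. The letters TTTGAA, the core of the cell cycle homology region, matched for RRM1 and DUT, against 16.1% of all genes, and in 2 of the 13 windows, against 13.3% of all windows. Capitals mark the E2F letters in the lines below.
TYMS chr18:657603-657632: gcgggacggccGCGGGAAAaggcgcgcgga
DUT chr15:48332152-48332181: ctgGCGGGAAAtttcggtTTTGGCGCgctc

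Smaug proteins bind a short stem with a loop of the form CNGGN, where N is any base. The main coding transcript of each gene was searched for this loop between 4 paired bases on each side, with Watson-Crick pairs only. TK1-201 held 2 such matches, and RRM2B-201 and DCK-201 held 1 each. The letters were not found in the other 6 main transcripts, RRM2-201 included. Transcripts that GENCODE release 29 does not hold were not searched, and 1 of these stands among the RRM2 rows. Of 11025 main coding transcripts, 29.04% held at least 1. Capitals mark the loop in the matches of TK1-201 (from bases 491 and 706) and of DCK-201 (from base 1099).
TK1 from base 491: ggccCAGGAggcc
TK1 from base 706: gcttCCGGGaagc
DCK from base 1099: aacaCTGGAtgtt

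Without Dox, TYMS was the most abundant of the 9 genes, at 211 TPM. DUT (69.5 TPM), DTYMK (65.0), TK1 (58.8), RRM2 (50.2) and RRM1 (49.2) formed a middle group. SAMHD1 (30.6), RRM2B (23.0) and DCK (19.6) were lowest. With Dox the order was TYMS (169 TPM), DUT (61.1), TK1 (54.1), DTYMK (45.1), RRM1 (37.7), SAMHD1 (30.8), RRM2B (25.5), RRM2 (20.1) and DCK (17.5). RRM2 thus moved from the fifth place to the eighth, below RRM2B, when matched transcripts alone were summed. No spread over samples exists from which to say which neighbours in this order differ.

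**Figure D1:**
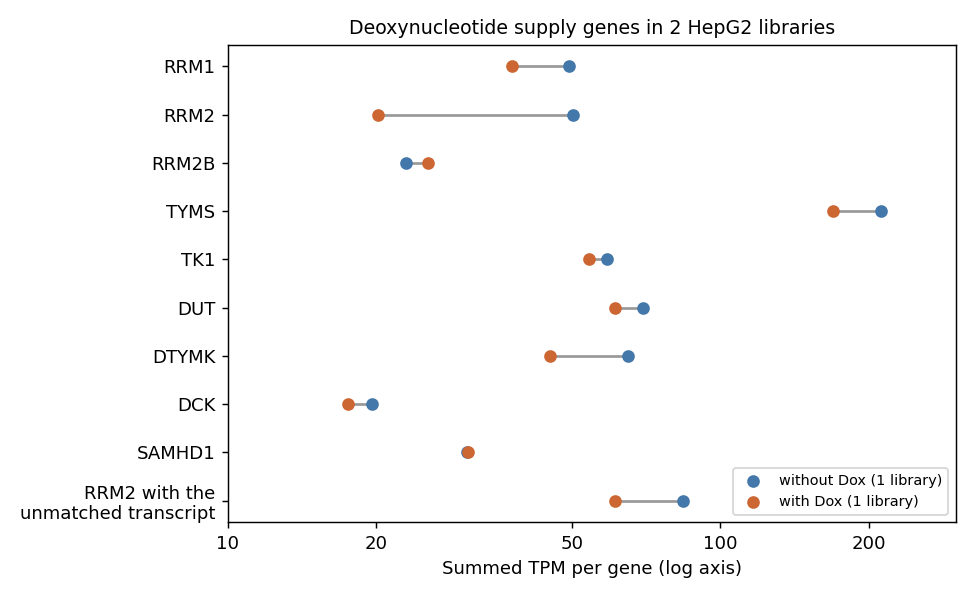
Summed TPM of each gene on a log axis, with 1 point for the library without Dox and 1 for the library with Dox. RRM2 has the widest gap, from 50.2 to 20.1 TPM, and its gap narrows to 84.0 and 61.2 TPM in the lowest line, where an unmatched transcript is added.

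Of the 9 genes, 7 were lower with Dox and 2 higher, RRM2B and SAMHD1, where 47% of all genes compared were lower by any amount. SAMHD1 changed sign when log2 fold changes were centred on the median of all genes, and 8 of 9 were then lower. The median log2 fold change, log2((TPM with Dox + 1)/(TPM without Dox + 1)), was -0.18 for the members and 0.02 for all genes. Only RRM2 passed 1.5-fold on this scale in either direction, and it did so only without an unmatched transcript among its rows. Of all genes, 3.9% were at least 1.5-fold lower (3.76% when transcripts that the annotation does not hold are counted with the gene around them). The contrast served to choose the members, so nothing is read from these shares. The other 8 genes lay between -0.52 and 0.14 and together held 527 TPM without Dox and 441 TPM with Dox.

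**Figure D2:**
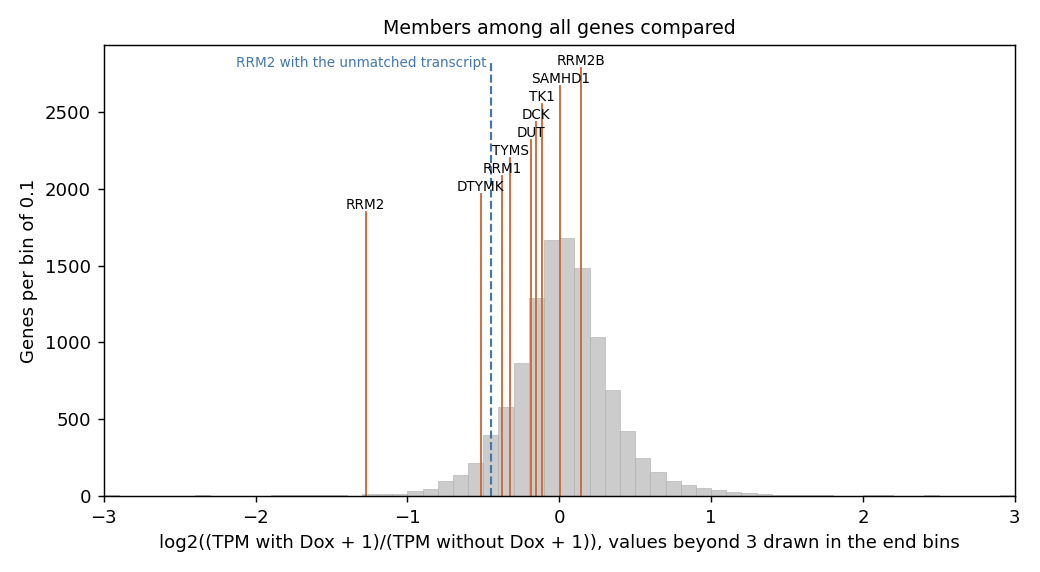
Number of genes in bins of 0.1 of the log2 fold change, for 11582 genes, with a line at each member. The members other than RRM2 lie between -0.52 and 0.14, while 5% of all genes lie below -0.53 and 5% above 0.60. DTYMK is thus close to the lower of these limits. The dashed line shows RRM2 at -0.45 when the unmatched transcript is added.

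RRM2 (ENSG00000171848, chromosome 2, 10120698 to 10131419, GRCh38) had the largest difference of the group. Its 12 matched transcripts summed to 50.2 TPM without Dox and 20.1 with Dox, which is 2.49-fold lower on the TPM scale and -1.28 on the log2 scale of TPM plus 1. This value ranked 73 from the lowest of 11582 genes. The genes nearest to it among coding genes with a mean of at least 20 TPM were STMN3 (-1.14), CDK7 (-1.13), PPP1R14B (-1.09) and TMEM208 (-1.01), by the size of the log2 fold change over these 2 libraries.

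Most of the RRM2 difference lay in a single transcript. RRM2-201, which codes for 389 residues, was at 28.8 and 3.84 TPM in the libraries without and with Dox, so it was 7.51-fold lower. It held 57.4% of the gene's TPM without Dox and 19.1% with Dox. The retained-intron form RRM2-207 was at 18.2 and 11.2 TPM, and its share went from 36.3% to 55.5%. Since 92.1% of its bases are shared with RRM2-201, the values of both forms depend on how shared reads were divided. That division was not tested, and at 573 nt RRM2-207 has no fragment estimate. The longer coding form RRM2-202, of 449 residues, was at 2.43 and 1.54 TPM. RRM2-211, a processed transcript of 332 nt upstream of the main start, was listed at 0 without Dox and at 2.85 TPM with Dox. It is shorter than the 600 nt from which fragments were estimated, so the count behind this value is not known. The 11 transcripts other than RRM2-201 summed to 21.4 and 16.3 TPM, or -0.37 on the log2 scale. The 4 coding transcripts summed to 31.5 and 6.10 TPM (-2.20).

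The size of the RRM2 difference depended on a transcript to which no gene could be given. ENST00000652660 is not in GENCODE release 29, and no source used here names its gene, but in the deposited table it stands among the rows of RRM2. It was at 33.8 and 41.1 TPM in the libraries without and with Dox, more than any matched RRM2 transcript in either library. The table keeps transcripts of a gene together: of 109776 matched rows whose neighbours both belong to 1 gene, 109725 (99.95%) belong to that gene too. One exception is a transcript of AC007240.1, which stands between RRM2 rows as well.

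If ENST00000652660 is counted with RRM2, RRM2 summed to 84.0 TPM in the library without Dox against 61.2 in the other, which is -0.45 on the log2 scale. RRM2 was then 1.37-fold lower, short of 1.5-fold, and ranked 796 from the lowest of 11609 genes. RRM2-201 and the unmatched transcript together were at 62.6 and 44.9 TPM (-0.47). This sum was made after the data were seen. No other member had an unmatched transcript between its rows. RefSeq lists C2orf48 as a synonym of RRM2, and C2orf48 with AC007240.1 held 4.004 and 3.965 TPM, which brought the matched sum to -1.14 when added alone.

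**Figure D3:**
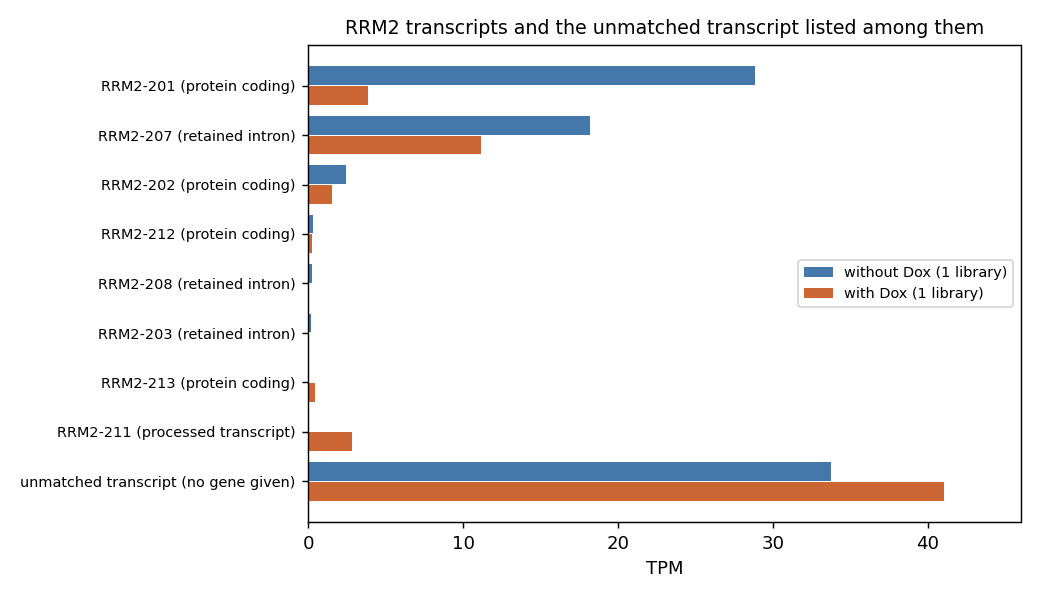
TPM of each RRM2 transcript above 0 in either library, and of the unmatched transcript listed among them, with 1 bar per library. RRM2-201 goes from 28.8 to 3.84 TPM, while the unmatched transcript goes from 33.8 to 41.1 TPM.

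RRM1 (ENSG00000167325, chromosome 11, 4094707 to 4138876), the large subunit that holds the active site, was at 49.2 TPM against 37.7 with Dox (-0.37). RRM1-201 alone held 99.0% and 97.2% of this. Scaled to the fragment totals above, its estimated fragments with Dox were 0.73 of those without (95% counting interval 0.69 to 0.78). RRM2B (ENSG00000048392) was at 23.0 and 25.5 TPM (0.14), almost all on RRM2B-201 at 21.4 and 23.1 TPM. Its fragment ratio was 1.05, with an interval of 0.99 to 1.13, and its TPM ratio was 1.11. The interval includes 1 on the fragment scaling, and whether it does so depends on that scaling.

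The ratio of the subunit transcripts was therefore sensitive to the unmatched transcript. On matched transcripts, RRM2 was at 1.02 times the TPM of RRM1 without Dox and 0.53 times with Dox. With the unmatched transcript these ratios were 1.71 and 1.62. Against RRM2B, RRM2 was at 2.18 and 0.79 times on matched transcripts, and at 3.65 and 2.40 times with the unmatched transcript. The library with Dox had the lower ratio in each of these pairs, and RRM2 was below RRM2B only in the first sum.

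**Figure D4:**
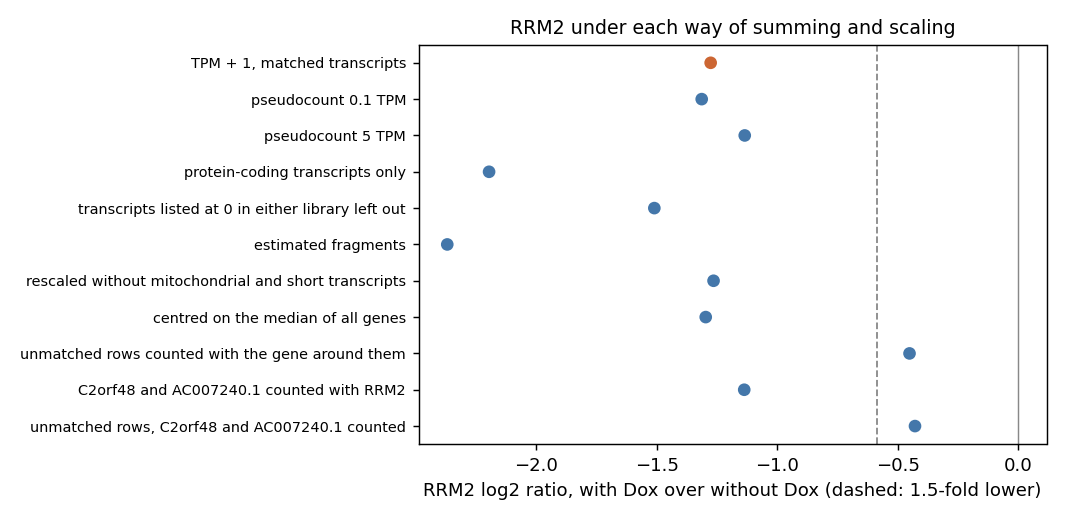
RRM2 log2 ratio, with Dox over without Dox, for TPM plus 1 on matched transcripts and 10 alternatives, with 1 point each and a dashed line at 1.5-fold lower. The points lie between -2.37 and -0.43, and the 2 that count the unmatched transcript lie to the right of the dashed line.

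The 4 genes of thymidylate supply were all lower with Dox, and none by 1.5-fold. DTYMK (ENSG00000168393, chromosome 2, 241675742 to 241686991) differed most (-0.52), with 65.0 TPM in the library without Dox against 45.1, and a fragment ratio of 0.69 (interval 0.62 to 0.76). Its main form DTYMK-201, of 212 residues, was at 49.8 and 35.5 TPM. The decay-annotated DTYMK-202 was at 7.53 and 5.75 TPM. The retained-intron DTYMK-206 was at 5.54 and 2.68 TPM, so all 3 forms were lower with Dox.

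TYMS (ENSG00000176890, chromosome 18, 657604 to 673578) was at 211 and 169 TPM (-0.32), with a fragment ratio of 0.78 (0.75 to 0.82). The coding form TYMS-203, of 313 residues, was at 133 and 108 TPM. The processed transcript TYMS-205 was at 76.1 and 60.7 TPM and held 36.0% of the gene in both libraries. The gene ENOSF1 overlaps TYMS on the opposite strand over 3255 bases, and whether strand was kept is not given in the sources used here. ENOSF1 was at 15.9 and 8.07 TPM, and its part in the TYMS values was not tested.

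TK1 (ENSG00000167900, chromosome 17, 78174075 to 78187233) was at 58.8 and 54.1 TPM (-0.12), with a fragment ratio of 0.87 (0.80 to 0.96). Its full-length form TK1-201, of 234 residues, was at 40.6 and 35.4 TPM. The shorter TK1-205, of 180 residues, was at 16.3 and 16.7 TPM. The TK1 difference thus lay in the full-length form.

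DUT (ENSG00000128951, chromosome 15, 48331011 to 48343373) was at 69.5 and 61.1 TPM (-0.18), and its fragment interval of 0.84 to 1.02 includes 1. The short form DUT-205, of 141 residues, was at 48.5 and 41.0 TPM. DUT-201, of 252 residues, the length of the mitochondrial precursor, was at 11.03 and 10.2 TPM. DUT-202, of 164 residues, the length of the nuclear enzyme, was at 7.09 and 8.67 TPM. DUT-205 and DUT-201 were thus lower and DUT-202 higher with Dox, and DUT-205 had the largest difference in TPM of these 3 forms.

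DCK (ENSG00000156136, chromosome 4, 70992538 to 71030914) was at 19.6 and 17.5 TPM (-0.15), with a fragment ratio of 0.87 (0.79 to 0.97). DCK-201 held 98.2% and 94.97% of it. SAMHD1 (ENSG00000101347, chromosome 20, 36889773 to 36951901), the enzyme that lowers deoxynucleotide pools, was at 30.6 and 30.8 TPM (0.01). Its fragment ratio was 0.95 with an interval of 0.89 to 1.01. SAMHD1-221, of 626 residues, was at 20.2 TPM in both libraries, and the smaller coding form SAMHD1-201 at 2.54 and 1.17 TPM. Over the 8 members other than RRM2, the counting interval of the fragment ratio lay below 1 for 5 genes and above 1 for 0. It included 1 for RRM2B, DUT and SAMHD1, and for RRM2B this depends on the scaling. On the same scaling, 28.3% of 11361 genes with estimated fragments had an interval wholly below 1 and 23.8% wholly above 1.

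Genes of the same metabolism were taken from 10 further lists, chosen with earlier results of these data known. Of 15 other deoxynucleoside salvage genes and kinases compared, 9 were lower and 6 higher, where 47% of all genes were lower. Of the 15, 1 passed 1.5-fold, where 5.32% of all genes were at least 1.5-fold higher. That gene was CDA, cytidine deaminase, at 2.69 and 4.63 TPM (0.61). ADA, adenosine deaminase, was at 4.94 and 3.30 TPM, and the adenylate kinase AK1 at 17.5 and 23.4 TPM. The list's median was -0.09.

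Of 12 genes that clean nucleotide pools or remove phosphates, 7 were lower, where 47% of all genes were, and none passed 1.5-fold. The nucleotidase NT5C2 was at 55.5 and 73.3 TPM, the surface nucleotidase NT5E at 39.2 and 46.2 TPM, and DCTPP1, which removes dCTP and its analogues, at 79.5 and 66.5 TPM. Of 5 transporters compared, 4 were higher and 1 lower, beside the same 47% of all genes lower. The mitochondrial pyrimidine nucleotide carrier SLC25A36 was at 49.3 and 78.2 TPM (0.66) and the nucleoside transporter SLC29A3 at 18.8 and 23.4 TPM.

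TYMS takes its methyl group from folate, and 8 of 9 genes of that cycle were lower, where 47% of all genes were. One of the 8, SHMT2, was at 167.5 and 167.4 TPM, and was named after its values were seen. For 3 genes the difference reached 1.5-fold, which 3.9% of all genes reached in that direction. SHMT1, which loads one-carbon units onto folate in the cytosol, was at 27.7 and 4.71 TPM (-2.33). Its main transcript SHMT1-201 was at 14.9 TPM without Dox and listed at 0 with Dox, while SHMT1-203 was at 5.74 and 2.86 TPM. MTHFD1 was at 7.13 and 3.46 TPM (-0.87), but with unmatched transcripts among its rows it was at 48.1 and 46.6 TPM (-0.04). The folate carrier SLC19A1 was at 9.75 and 5.47 TPM (-0.73).

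For synthesis of the ribonucleotide precursors, 5 of 7 pyrimidine genes were lower, with a median of -0.05. Of 15 purine genes 9 were lower, with a median of -0.01. Among all genes compared 47% were lower, with a median of 0.02. CAD, which carries the opening steps of pyrimidine synthesis, was at 31.8 and 21.3 TPM (-0.55), UMPS at 43.2 and 34.9 TPM, and CTPS1 at 38.6 and 34.4 TPM. PRPS2, a phosphoribosyl pyrophosphate synthetase, was at 19.4 and 13.1 TPM (-0.53), APRT at 71.9 and 60.6 TPM, and ADSS1, near the filter, at 1.65 and 0.41 TPM.

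Of 7 genes listed as electron donors of ribonucleotide reductase, 3 were lower, where 47% of all genes were, and 4 higher. The median was 0.09. The list includes the mitochondrial forms TXN2 (-0.20), GLRX2 (-0.08) and TXNRD2 (0.09). TXNRD1, which reduces thioredoxin, was at 203 and 293 TPM (0.53), and the glutaredoxin GLRX at 197 and 248 TPM. GSR, glutathione reductase, was at 150 and 116 TPM (-0.37).

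Of 13 kinases, cyclins and ligases that act on these proteins, 11 were lower, where 47% of all genes were. The median was -0.31. In estimated fragments 9 were lower, with CHEK1 and CHEK2 at fragment ratios of 1.04 and 1.01. CCNF, the ligase subunit that marks RRM2 protein for degradation, was at 6.96 and 4.66 TPM, and CCNA2, a cyclin of S phase and G2 that phosphorylates SAMHD1 with its kinase, at 62.1 and 44.1 TPM.

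A list of E2F and RB family factors, which also holds LIN54, MYBL2 and FOXM1, had 15 genes compared. Of these, 9 were lower, where 47% of all genes were, and 6 higher, RB1 (0.30) among them. The median was -0.04. MYBL2, which acts from S phase into G2, was at 45.3 and 28.95 TPM (-0.63), E2F1 at 8.37 and 5.64 TPM (-0.50) and FOXM1 at 34.5 and 25.8 TPM (-0.40). All of the 30 E2F-driven replication genes were lower with Dox, where 47% of all genes were, and the median was -0.46 against 0.02 for all genes. In 7 of the 30 the difference reached 1.5-fold, as in 3.9% of all genes. The ligase LIG1 was at 25.4 and 12.4 TPM (-0.99) and the clamp loader subunit RFC5 at 18.9 and 10.6 TPM (-0.78). Part of the LIG1 difference lay in LIG1-212, at 6.88 TPM without Dox and listed at 0 with Dox. At 580 nt LIG1-212 has no fragment estimate. The most abundant form, LIG1-201, was lower with Dox too, while LIG1-213 was listed at 0 without Dox and at 2.59 TPM with Dox. Whether LIG1 reaches 1.5-fold without LIG1-212 was not tested. UHRF1 was at 5.38 and 0.90 TPM (-1.75), and at 38.6 and 24.2 TPM (-0.65) with an unmatched transcript among its rows. The RRM2 value of -0.45 with its unmatched transcript lies beside the median of this list, and the value of -1.28 without it lies beyond every gene of the list but UHRF1.

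**Figure D5:**
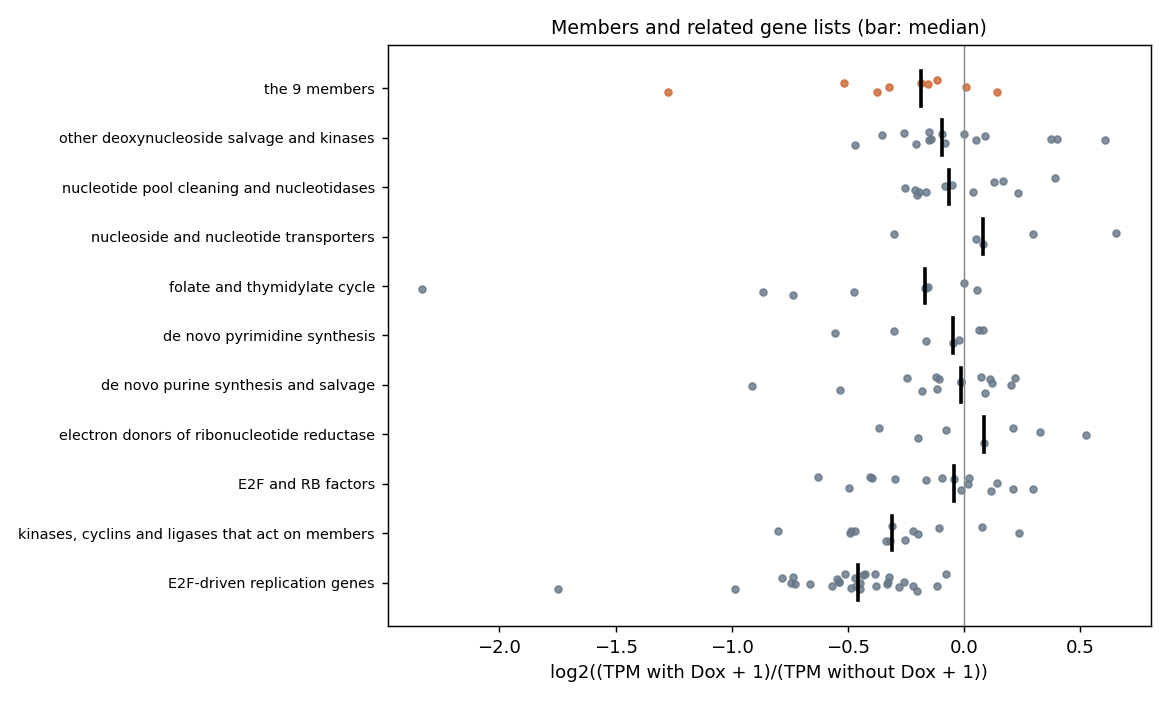
Log2 fold change of each gene compared (points) and the median (bar) for the 9 members and 10 related lists. All 30 E2F-driven replication genes lie below 0, with a median of -0.46, while the other lists hold genes on both sides.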

How the data were processed

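RNA was measured in 2 HepG2 libraries, 1 per group. The authors deposited TPM values per Ensembl transcript (184844 rows), and Trimmomatic, Salmon and GRCh38.p13 are named per the submitters' processing notes. The tool versions, and the transcript annotation used, were not given in the sources used here. Transcripts were matched to GENCODE release 29 by identifier without version (161798 matched, 93.3% of the TPM in each library) and summed per gene. Transcript lengths are those of release 29, in which the main transcript of every member but DUT carries another version number. Fold changes used a pseudocount of 1 TPM.

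Fragments were estimated for transcripts of at least 600 nt from steps in low TPM values, with a length offset of 300 nt in both libraries. Of the low values, 85.9% and 86.1% lay within 0.1 of a whole number, the criterion that was fitted. Intervals are exact 95% binomial (Clopper-Pearson). The fits were checked on simulated data.

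Named genes are the 9 members, the 3 genes of each list with the largest absolute change, and the 4 genes nearest to RRM2. A few genes that this rule names, and 1 list, are not reported here. Members and lists were chosen with earlier results of these data known. Counting the unmatched transcripts was added after the data were seen. Python 3.11.15, pandas 2.3.3 and scipy 1.17.1 were used.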

Additional observations from a re-analysis of the deposited data

How the results depend on the processing

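Of 10 alternatives, all left RRM2 lower with Dox, and 8 left it at least 1.5-fold lower. Its log2 fold change was -2.20 on protein-coding transcripts only, -1.51 without transcripts listed at 0 in either library, and -2.37 in estimated fragments, which cover only the 53.8% of its TPM on transcripts of 600 nt or more. It was -0.45 with the unmatched transcript counted, and -0.43 with C2orf48 and AC007240.1 added too, both short of 1.5-fold. These sums differ in the transcripts they hold. The cause of the difference between RRM2-201 and its neighbours was not tested. RRM1, TYMS, TK1, DUT, DTYMK and DCK were lower and RRM2B higher under all 10 alternatives, and SAMHD1 was lower under 4 and higher under 6. The number of members lower was 7 or 8. All 30 replication genes compared stayed lower under each alternative, with 29 compared at a minimum mean of 5 TPM. Of the folate genes 6 to 9 were lower, with 6 at a minimum mean of 5 TPM. The share of all genes at least 1.5-fold lower was 1.5% with a pseudocount of 5 TPM and 1.79% with no filter. No paired analysis was possible because each group has 1 library, and no replicate could be left out. TPM states no depth, so counting limits rest on the estimate.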
